A study of Mus musculus with 12 samples.

Results

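The BCL2 family genes described here were 10 death and survival genes of the mitochondrial route of apoptosis: Bcl2, Bcl2l1, Mcl1, Bcl2l11, Pmaip1, Bbc3, Bid, Bax, Bak1 and Bcl2l15. Their members on the array were taken as every probe set, the group of short oligonucleotides that reads 1 transcript, whose platform annotation names 1 gene alone and that gene is on this list. This gave 28 of the 45037 probe sets tested, for 9 of the 10 genes, and Bax is named here without a value. Mcl1 had 6 probe sets, Bcl2 and Bcl2l11 had 5 each, Bcl2l1 had 4, Bid had 3, Bak1 had 2, and Pmaip1, Bbc3 and Bcl2l15 had 1 each.

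The study compared splenic CD4 T cells of NOD mice, the inbred strain that develops autoimmune diabetes spontaneously, with those of B6.H2g7 mice, which carry the NOD MHC haplotype on a C57BL/6 (B6) background. In each strain, regulatory T cells (Treg, sorted as CD4+CD25+) were compared with conventional T cells (Tconv, sorted as CD4+CD25-), with 3 Affymetrix arrays in each of the 4 groups: NOD Treg, B6.H2g7 Treg, NOD Tconv and B6.H2g7 Tconv. All mice were 6 weeks old, the labels name no treatment, and each array carried RNA pooled from 3 mice and amplified in 2 rounds. All cells were also gated as negative for CD8a, CD11b, CD69 and B220, so B cells, most myeloid cells and recently activated cells were sorted away from every group.

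BCL2 family proteins decide whether the outer membrane of the mitochondrion is opened, which releases cytochrome c and starts the caspase cascade. The effectors BAX and BAK1 form the pores, the survival proteins BCL2, BCL-XL (from Bcl2l1) and MCL1 hold them in check, and the BH3-only proteins BIM (from Bcl2l11), NOXA (from Pmaip1), PUMA (from Bbc3) and BID oppose the survival proteins or activate the effectors. In mouse T cells, BIM removes cells after cytokine withdrawal, and Treg are known to require MCL1 and to depend on interleukin 2 for their survival.

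Levels are given as log2 of the deposited RMA intensity, so a difference of 1 is a doubling, and they are compared between groups for the same probe set only. A probe set was called changed where limma's adjusted p over all 45037 probe sets was under 0.05. Foxp3, which defines Treg, averaged 11.05 in NOD Treg and 11.00 in B6.H2g7 Treg, against 5.91 in NOD Tconv and 5.68 in B6.H2g7 Tconv. All 4 Treg markers listed (Foxp3, Il2ra, Ctla4 and Ikzf2) averaged higher in NOD Tconv than in B6.H2g7 Tconv, and 1 was called. Ikzf2 averaged 9.31 against 8.54. The summed intensity of the 4 was 885 to 1157 in NOD Tconv, against 561 to 790 in B6.H2g7 Tconv. The part of this in the strain differences between Tconv was not tested. Of 12 markers of CD8 T cells, B cells, myeloid cells and NK cells, 10 were measured and 0 were called in any of the 6 comparisons made here. The summed intensity of the 2 CD8 markers was 201 to 212 in NOD Treg, against 248 to 261 in B6.H2g7 Treg, and its part in the strain differences between Treg was not tested. The labelled share of Foxp3-positive cells was 89% in NOD Treg replicate 1 and 95% in the remaining NOD Treg arrays, against 94%, 96% and 96% in B6.H2g7 Treg. The actin signal of the 3′ end over that of the 5′ end, which rises as RNA is shorter or less completely copied, was smaller on the arrays numbered 1: its log2 difference was 3.29 in NOD Treg, 2.66 in B6.H2g7 Treg and 2.97 in NOD Tconv, against 3.79 to 4.70 on the remaining arrays of those groups. In B6.H2g7 Tconv the arrays numbered 1, 2 and 3 gave 3.84, 3.67 and 4.43. In these sorted bulk samples, fewer cells of a type and less RNA per cell cannot be told apart.

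Compared with Tconv, Treg had higher RNA of Pmaip1, Bcl2l1, Bid and, at some of their probe sets, Bcl2 and Bcl2l11, and 0 probe sets of the family were called lower. Over both strains together, 7 of the 28 probe sets, from 5 genes, rose and 0 fell. Of the whole array, 5.84% was called in that comparison, with 3.45% higher and 2.4% lower. In NOD, 5 of 28 were called higher and 0 lower, against 3.2% of the whole array, with 2.09% higher and 1.11% lower. In B6.H2g7, 5 of 28 were also called higher and 0 lower, against 3.37% of the whole array, with 2.04% higher and 1.34% lower. Probe sets that name the same gene may read shared transcripts and were not taken as independent. Taking each gene by its probe set of highest mean, 8 of the 9 genes had a positive difference over both strains, against 45.7% of 18193 genes. The median was 0.37, against -0.01 over all genes, and 3 of the 9 were called, against 7.5%. Bcl2l15, among the 8, had opposite signs in the strains, 0.99 in NOD and -0.40 in B6.H2g7. The members were chosen with earlier results of these data known. Both kinds of gene, those that promote death and those that prevent it, were among the higher ones.

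**Figure D1:**
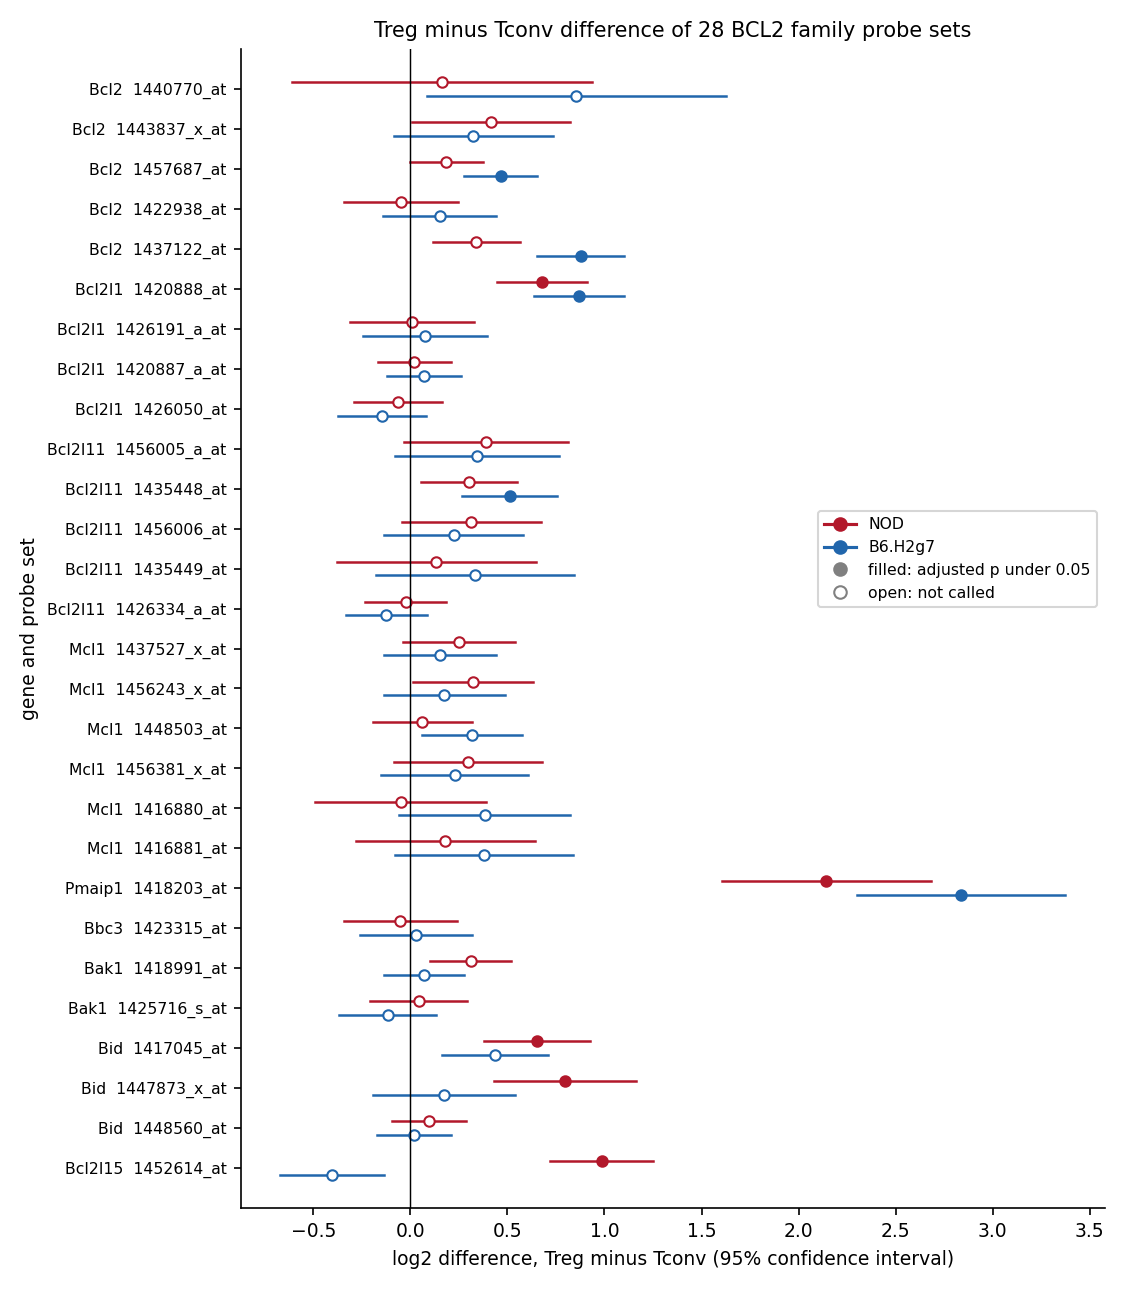
Treg minus Tconv difference (log2, horizontal axis) of each of the 28 probe sets (vertical axis), in NOD and B6.H2g7, with 95% confidence intervals from limma; filled points have an adjusted p under 0.05. Pmaip1 lies farthest to the right in both strains, at 2.14 in NOD and 2.84 in B6.H2g7, and Bcl2l15 lies at 0.99 in NOD and -0.40 in B6.H2g7.

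Pmaip1 encodes NOXA, a BH3-only protein that binds MCL1 and promotes its degradation. Its probe set 1418203_at read 10.94, 10.02 and 10.21 in NOD Treg, against 8.59, 8.06 and 8.09 in NOD Tconv. In B6.H2g7 it read 9.25, 8.91 and 8.91 in Treg, against 6.54, 6.26 and 5.77 in Tconv. All Treg arrays of a strain lay above all its Tconv arrays, and the 4 groups did not overlap: NOD Treg was highest, then B6.H2g7 Treg, NOD Tconv and B6.H2g7 Tconv. The Treg minus Tconv difference was 2.14 ± 0.25 in NOD (SE; 4.42-fold; limma adjusted p = 2.15e-04) and 2.84 ± 0.25 in B6.H2g7 (7.15-fold; adjusted p = 1.71e-05). NOD exceeded B6.H2g7 in both populations, by 1.36 in Treg (2.57-fold; limma adjusted p = 0.00689) and by 2.06 in Tconv (4.16-fold; adjusted p = 3.00e-04). The difference between the strains in the Treg change was -0.69, with a 95% interval of -1.45 to 0.06, and was not called (limma adjusted p = 0.962). Replicate 1 gave the highest Pmaip1 value in each of the 4 groups, and all 5 calls were also made with the arrays numbered 1 left out and with any single array left out.

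**Figure D2:**
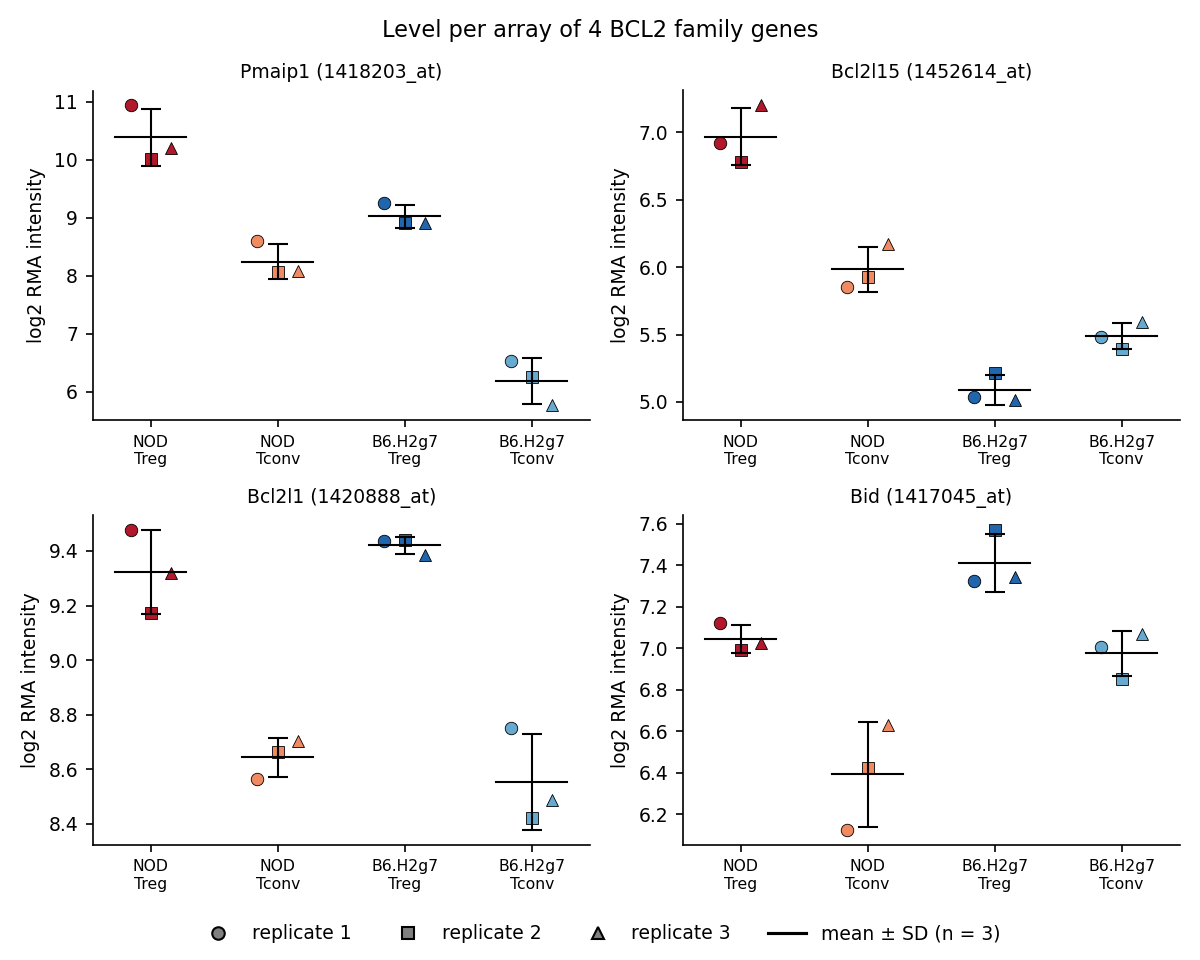
Level (log2 RMA intensity, vertical axis, not starting at 0 and scaled for each gene) of Pmaip1, Bcl2l15, Bcl2l1 and Bid on each array, by group; marker shapes give the replicate number, and lines the mean ± SD of 3 arrays. Pmaip1 separates all 4 groups, Bcl2l1 separates Treg from Tconv in both strains, and Bcl2l15 is high in NOD Treg and lowest in B6.H2g7 Treg.

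Bcl2l11 encodes BIM, a BH3-only protein that binds all the main survival proteins. One of its 5 probe sets was called. Probe set 1435448_at read 10.29, 10.58 and 10.60 in NOD Treg, against 10.19, 10.17 and 10.20 in NOD Tconv, and 10.38, 10.48 and 10.71 in B6.H2g7 Treg, against 10.12, 10.03 and 9.89 in B6.H2g7 Tconv. The groups did not overlap within either strain, although in NOD the lowest Treg array lay only just above the Tconv arrays. Its difference was 0.41 ± 0.08 over both strains (SE; 1.33-fold; limma adjusted p = 0.007), 0.30 in NOD (adjusted p = 0.286) and 0.51 in B6.H2g7 (adjusted p = 0.0245). The B6.H2g7 call was lost without B6.H2g7 Treg replicate 2 or 3 or B6.H2g7 Tconv replicate 2 or 3, with adjusted p from 0.0605 to 0.106. Over both strains, the probe set of highest mean, 1456005_a_at, had a difference of 0.37 (adjusted p = 0.199) and 1456006_at one of 0.27 (adjusted p = 0.306). The last 2 lay under the 25th percentile of all probe set means, 5.28, and are called dim here: 1435449_at had a difference of 0.23 and 1426334_a_at one of -0.07, neither called.

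Bbc3 encodes PUMA, the BH3-only protein best known as a target of p53. Its probe set 1423315_at averaged 7.41 ± 0.12 in NOD Treg and 7.46 ± 0.21 in NOD Tconv, and 7.49 ± 0.23 in B6.H2g7 Treg and 7.46 ± 0.05 in B6.H2g7 Tconv (SD, n = 3 arrays each). The groups overlapped in every comparison. The Treg minus Tconv difference over both strains was -0.01, with a 95% interval of -0.21 to 0.19 (limma adjusted p = 0.987), and neither strain comparison was called.

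FOXO forkhead factors are known to activate both Bcl2l11 and Bbc3 in mammalian cells deprived of growth factors. Of the 10 members, 9 had a promoter window, and Pmaip1, which had none, was not searched. Among those 9, Bcl2l11 and Bbc3 were the only genes with a window that held the forkhead core GTAAACA. The windows shown are the 250 bases before a RefSeq transcript start (GRCm38.p6, the C57BL/6J genome), 5′ to 3′ on the plus strand, which is that of both genes, at chr2:128125788-128126037 for Bcl2l11 and chr7:16310011-16310260 for Bbc3, with the match in capitals. The Bcl2l11 window precedes the gene's first start, and its match starts 227 bases before that start. The Bbc3 window lies inside the gene and precedes an alternative transcript start, and its match, on the opposite strand and printed as TGTTTAC, starts 167 bases before that one. The remaining windows, 1 of Bcl2l11 and 2 of Bbc3, hold no match.
Bcl2l11: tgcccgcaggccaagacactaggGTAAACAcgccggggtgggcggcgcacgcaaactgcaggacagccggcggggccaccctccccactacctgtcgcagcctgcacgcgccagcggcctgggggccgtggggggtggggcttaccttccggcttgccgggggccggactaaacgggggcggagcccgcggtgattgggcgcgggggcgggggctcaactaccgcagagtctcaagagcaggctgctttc
Bbc3: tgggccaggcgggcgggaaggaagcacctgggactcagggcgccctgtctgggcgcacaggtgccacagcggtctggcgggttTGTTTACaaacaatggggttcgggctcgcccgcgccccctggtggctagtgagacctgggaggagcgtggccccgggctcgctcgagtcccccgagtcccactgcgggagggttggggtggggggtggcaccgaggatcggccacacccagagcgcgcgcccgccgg
The forkhead core was in 2 of the 14 windows of the 9 members that had one, against 3.17% of the 32851 windows of all genes. Of 4 other motifs searched on both strands, the STAT pattern TTCNNNGAA (7.02% of all windows) and the AP-1 pattern TGANTCA (6.75%) were in 0 of the 14, the E-box CACGTG (6.02%) was in 2 and the p53 half-site (7.13%) was in 1. The windows are the reference strain's and say nothing of NOD, and a match is a description of letters. Of the 2 genes with the forkhead core, Bcl2l11 had 1 probe set called higher in Treg and Bbc3 had 0.

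Bid encodes the BH3-only protein that caspase 8 cleaves to connect death receptors to the mitochondrion. Probe set 1417045_at read 7.12, 6.99 and 7.02 in NOD Treg, against 6.13, 6.42 and 6.63 in NOD Tconv. In B6.H2g7 it read 7.32, 7.57 and 7.34 in Treg, against 7.0, 6.85 and 7.07 in Tconv. All Treg arrays of a strain lay above all its Tconv arrays, and the 3 NOD Tconv arrays were the lowest of all 12. The Treg minus Tconv difference was 0.54 ± 0.09 over both strains (SE; 1.46-fold; limma adjusted p = 0.00173), 0.65 in NOD (adjusted p = 0.0102) and 0.44 in B6.H2g7 (adjusted p = 0.0997). With the arrays numbered 1 left out, the NOD difference was 0.48 (limma adjusted p = 0.130), and without NOD Tconv replicate 1 the B6.H2g7 difference was called (adjusted p = 0.0457).

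In Tconv, Bid was lower in NOD than in B6.H2g7, with a difference of -0.58 at 1417045_at (limma adjusted p = 0.0223) and of -0.97 at 1447873_x_at (adjusted p = 0.00507). In Treg the corresponding differences were -0.37 (adjusted p = 0.216) and -0.34 (adjusted p = 0.527), and the difference between the strains in the Treg change was not called at either. The Tconv call of 1417045_at was lost without NOD Tconv replicate 1 or 2 or B6.H2g7 Tconv replicate 1 or 3 (limma adjusted p 0.0709 to 0.0929). It was also lost without the arrays numbered 1 (-0.44, adjusted p = 0.216) and with the compared arrays alone (adjusted p = 0.0780). The Tconv call of 1447873_x_at was made in all these fits. The suffix _x_at marks probes that can also bind other transcripts. Probe set 1447873_x_at read 5.93, 6.28 and 6.35 in NOD Treg, against 5.02, 5.46 and 5.69 in NOD Tconv, and 6.37, 6.60 and 6.63 in B6.H2g7 Treg, against 6.17, 6.46 and 6.46 in B6.H2g7 Tconv. NOD Tconv lay below every other group at this probe set, and Treg and Tconv of B6.H2g7 overlapped. Its Treg minus Tconv difference was 0.80 in NOD (limma adjusted p = 0.0191) and 0.48 over both strains (adjusted p = 0.0288). The NOD call was lost without NOD Treg replicate 2 or 3 or NOD Tconv replicate 1 or 2 (limma adjusted p 0.0554 to 0.101), and with the compared arrays alone (adjusted p = 0.0660). The call over both strains was lost without any 1 of 6 arrays: NOD Treg 2 or 3, B6.H2g7 Treg 2 or 3, NOD Tconv 2 and B6.H2g7 Tconv 1 (adjusted p 0.0542 to 0.0829). The third probe set, 1448560_at, averaged 5.60 to 5.70 in the 4 groups and was not called in any comparison.

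Among the survival genes, Bcl2l1, the source of BCL-XL, had the clearest difference. Probe set 1420888_at read 9.48, 9.17 and 9.32 in NOD Treg, against 8.56, 8.66 and 8.70 in NOD Tconv. In B6.H2g7 it read 9.44, 9.44 and 9.39 in Treg, against 8.75, 8.42 and 8.49 in Tconv. All 6 Treg arrays lay above all 6 Tconv arrays, and within each population the strains overlapped. The difference was 0.68 ± 0.11 in NOD (SE; 1.60-fold; limma adjusted p = 0.00249) and 0.87 ± 0.11 in B6.H2g7 (1.82-fold; adjusted p = 3.48e-04), and both calls were made with any single array left out. The strains did not differ detectably in this change (-0.19, limma adjusted p = 0.962). The other 3 Bcl2l1 probe sets averaged 5.11 to 5.55 in the 4 groups, near the 25th percentile, with Treg minus Tconv differences of -0.15 to 0.08 in the strains and no call.

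Bcl2, the founding survival gene of the family, had 5 probe sets that did not move together. Probe set 1437122_at read 8.03, 7.93 and 7.82 in NOD Treg, against 7.79, 7.46 and 7.51 in NOD Tconv, and 8.14, 8.05 and 8.08 in B6.H2g7 Treg, against 7.15, 7.33 and 7.16 in B6.H2g7 Tconv. Treg lay above Tconv without overlap in both strains. Its difference was 0.34 in NOD (limma adjusted p = 0.134), 0.88 in B6.H2g7 (adjusted p = 2.43e-04) and 0.61 over both strains (adjusted p = 1.48e-04). Without NOD Tconv replicate 1 the NOD difference was 0.44 (limma adjusted p = 0.0498). The strain difference in that change, -0.54, had an unadjusted p of 0.00304 and an adjusted p of 0.715. Probe set 1457687_at, which correlated with it at r = 0.925 over the 12 arrays, read 10.86, 10.70 and 10.80 in NOD Treg, against 10.61, 10.58 and 10.61 in NOD Tconv, and 10.88, 10.94 and 10.94 in B6.H2g7 Treg, against 10.30, 10.54 and 10.53 in B6.H2g7 Tconv. Here too Treg lay above Tconv without overlap in both strains. The difference was 0.46 in B6.H2g7 (limma adjusted p = 0.00848) and 0.33 over both strains (adjusted p = 0.00536). With the arrays numbered 1 left out these were 0.41 (limma adjusted p = 0.120) and 0.28 (adjusted p = 0.0817).

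Between the strains, 2 other Bcl2 probe sets ran in opposite directions. Only 1443837_x_at was called between the strains in the main fit, and its suffix _x_at marks probes that can also bind other transcripts. Probe set 1443837_x_at read 10.39, 10.66 and 10.61 in NOD Treg, against 11.39, 11.28 and 11.40 in B6.H2g7 Treg, and 9.88, 10.31 and 10.22 in NOD Tconv, against 10.70, 10.85 and 11.54 in B6.H2g7 Tconv. All NOD arrays lay below all B6.H2g7 arrays at this probe set. It was lower in NOD, with a difference of -0.80 in Treg (limma adjusted p = 0.0343) and of -0.90 in Tconv (adjusted p = 0.0195). The Treg call was lost without any 1 of the 6 Treg arrays or NOD Tconv replicate 3 (limma adjusted p 0.0527 to 0.130), and also with quantile normalization (0.108), with a pseudocount of 16 (0.0506) and without the arrays numbered 1 (0.101). The Tconv call was lost with the compared arrays alone (adjusted p = 0.0888) and without NOD Tconv replicate 1 (-0.77, adjusted p = 0.0968) or replicate 3 (-0.94, adjusted p = 0.0514). Its Treg minus Tconv difference was not called, but was without B6.H2g7 Tconv replicate 3, at 0.58 in B6.H2g7 (limma adjusted p = 0.0435) and 0.50 over both strains (adjusted p = 0.00543).

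The probe set of highest mean, 1440770_at, read 12.43, 12.18 and 12.15 in NOD Treg, against 12.64, 10.89 and 11.35 in B6.H2g7 Treg, and 11.90 to 12.37 on the 3 arrays of NOD Tconv, against 11.15, 10.90 and 10.26 in B6.H2g7 Tconv. B6.H2g7 Treg replicate 1, the array with the smallest actin difference of all 12, was above every NOD array, whereas replicates 2 and 3 of B6.H2g7 Treg were below every one. NOD exceeded B6.H2g7 by 0.63 in Treg (limma adjusted p = 0.648) and by 1.32 in Tconv (adjusted p = 0.0816). Without B6.H2g7 Treg replicate 1 these were 1.13 (limma adjusted p = 0.0220) and 1.32 (adjusted p = 0.00299), and without B6.H2g7 Treg replicate 2 the Tconv value had an adjusted p of 0.0374. The Tconv difference was also called in 5 of the other settings tried (adjusted p 0.00339 to 0.0227), and the Treg difference in 3 (0.0190 to 0.0353). Over the 12 arrays 1440770_at and 1443837_x_at correlated at r = -0.56, so the files give no single direction for Bcl2 RNA between the strains. The Treg minus Tconv difference of 1440770_at was 0.16 in NOD, 0.85 in B6.H2g7 and 0.51 over both strains. None of these was called (limma adjusted p = 0.965, 0.348 and 0.406), and Treg and Tconv overlapped in both strains. With the actin covariate the differences in B6.H2g7 and over both strains were called (adjusted p = 0.0425 and 0.0156). The last of the 5, 1422938_at, averaged 8.28 to 8.43 in the 4 groups and was not called.

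**Figure D3:**
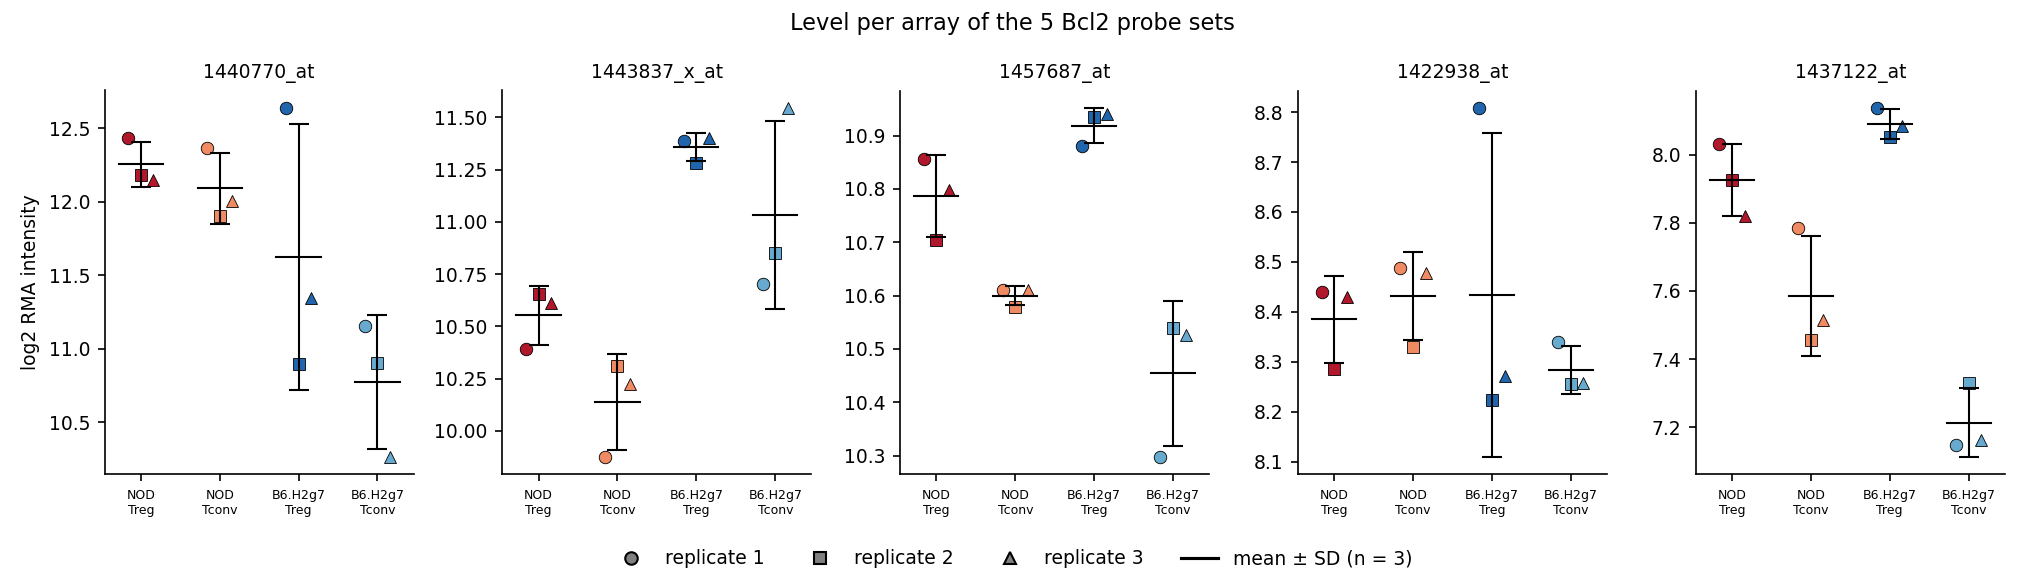
Level (log2 RMA intensity, vertical axis, not starting at 0 and scaled for each panel) of the 5 Bcl2 probe sets on each array, by group; marker shapes give the replicate number, and lines the mean ± SD of 3 arrays. NOD lies below B6.H2g7 at 1443837_x_at, and 1437122_at and 1457687_at separate Treg from Tconv.

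Mcl1, the survival gene whose protein NOXA binds, had 6 probe sets and 0 calls. The one of highest mean, 1437527_x_at, averaged 13.00 ± 0.19 in NOD Treg and 12.75 ± 0.06 in NOD Tconv, and 12.77 ± 0.25 in B6.H2g7 Treg and 12.62 ± 0.13 in B6.H2g7 Tconv (SD, n = 3 arrays each). Over both strains its difference was 0.20, with a 95% interval of -0.003 to 0.41 (limma adjusted p = 0.364). All 6 probe sets had positive differences over both strains, of 0.17 to 0.28, with adjusted p from 0.249 to 0.746. They do not count as 6 measurements: the 3 whose names end in _x_at, a suffix for probes that can also bind other transcripts, correlated with each other at 0.978 to 0.985 over the 12 arrays. The intervals leave room for a small difference in Mcl1 RNA, which these 12 arrays did not resolve.

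Bak1, the pore-forming effector that was measured, averaged 6.03 ± 0.12 in NOD Treg and 5.72 ± 0.10 in NOD Tconv, and 5.86 ± 0.10 in B6.H2g7 Treg and 5.79 ± 0.07 in B6.H2g7 Tconv at 1418991_at (SD, n = 3 arrays each). The NOD Treg arrays lay above the NOD Tconv arrays, with a difference of 0.31 (limma adjusted p = 0.139), and over both strains the difference was 0.19 (adjusted p = 0.165). Its other probe set, 1425716_s_at, was dim in all groups and was not called.

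Bcl2l15, a less studied member also named Bfk and regarded as weakly pro-apoptotic, was the only one of the 28 probe sets called for a difference between the strains in the Treg change, and it was called higher. Of all probe sets, 0.0933% were called for that difference, 0.0533% higher and 0.04% lower. Probe set 1452614_at read 6.92, 6.78 and 7.20 in NOD Treg, against 5.85, 5.93 and 6.17 in NOD Tconv. In B6.H2g7 it read 5.03, 5.22 and 5.01 in Treg, against 5.48, 5.40 and 5.59 in Tconv. The order was NOD Treg, NOD Tconv, B6.H2g7 Tconv and B6.H2g7 Treg, without overlap between neighbours, and all B6.H2g7 Treg arrays were under the 25th percentile of probe set means. The Treg minus Tconv difference was 0.99 ± 0.12 in NOD (SE; 1.98-fold; limma adjusted p = 4.10e-04) and -0.40 ± 0.12 in B6.H2g7 (adjusted p = 0.132). The strains differed in that change by 1.39 ± 0.17 (SE; limma adjusted p = 0.00593). Within Treg, NOD exceeded B6.H2g7 by 1.88 (limma adjusted p = 1.27e-06), a value measured against dim arrays, and within Tconv by 0.49 (adjusted p = 0.0539; 0.0460 without NOD Treg replicate 2 and 0.0345 without NOD Treg replicate 3). That Tconv difference was also called with the replicate block, array weights, eBayes with trend and robust settings, quantile normalization, dim probe sets left out and the actin covariate (adjusted p 0.00762 to 0.05). Over both strains the Treg minus Tconv difference was 0.29 (limma adjusted p = 0.0800; 0.0473 without NOD Treg replicate 2). The strain difference in the Treg change was called with any single array left out, with adjusted p at most 0.030, and without the arrays numbered 1 it was 1.32 with an adjusted p of 0.144.

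Between the strains, probe sets of 3 genes were called within each population. In Treg, 3 of 28 probe sets were called, Pmaip1 and Bcl2l15 higher in NOD and Bcl2 1443837_x_at lower in NOD, against 3.26% of the whole array, with 1.6% higher and 1.66% lower. In Tconv, 4 of 28 were called, Pmaip1 higher in NOD and both Bid probe sets and Bcl2 1443837_x_at lower in NOD, against 2.96% of the whole array, with 1.31% higher and 1.65% lower. These comparisons reuse the arrays of the Treg against Tconv comparisons, so their values are not independent of them. Bcl2l1, Bcl2l11, Mcl1, Bbc3 and Bak1 had 0 probe sets called between the strains in either population.

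**Figure D4:**
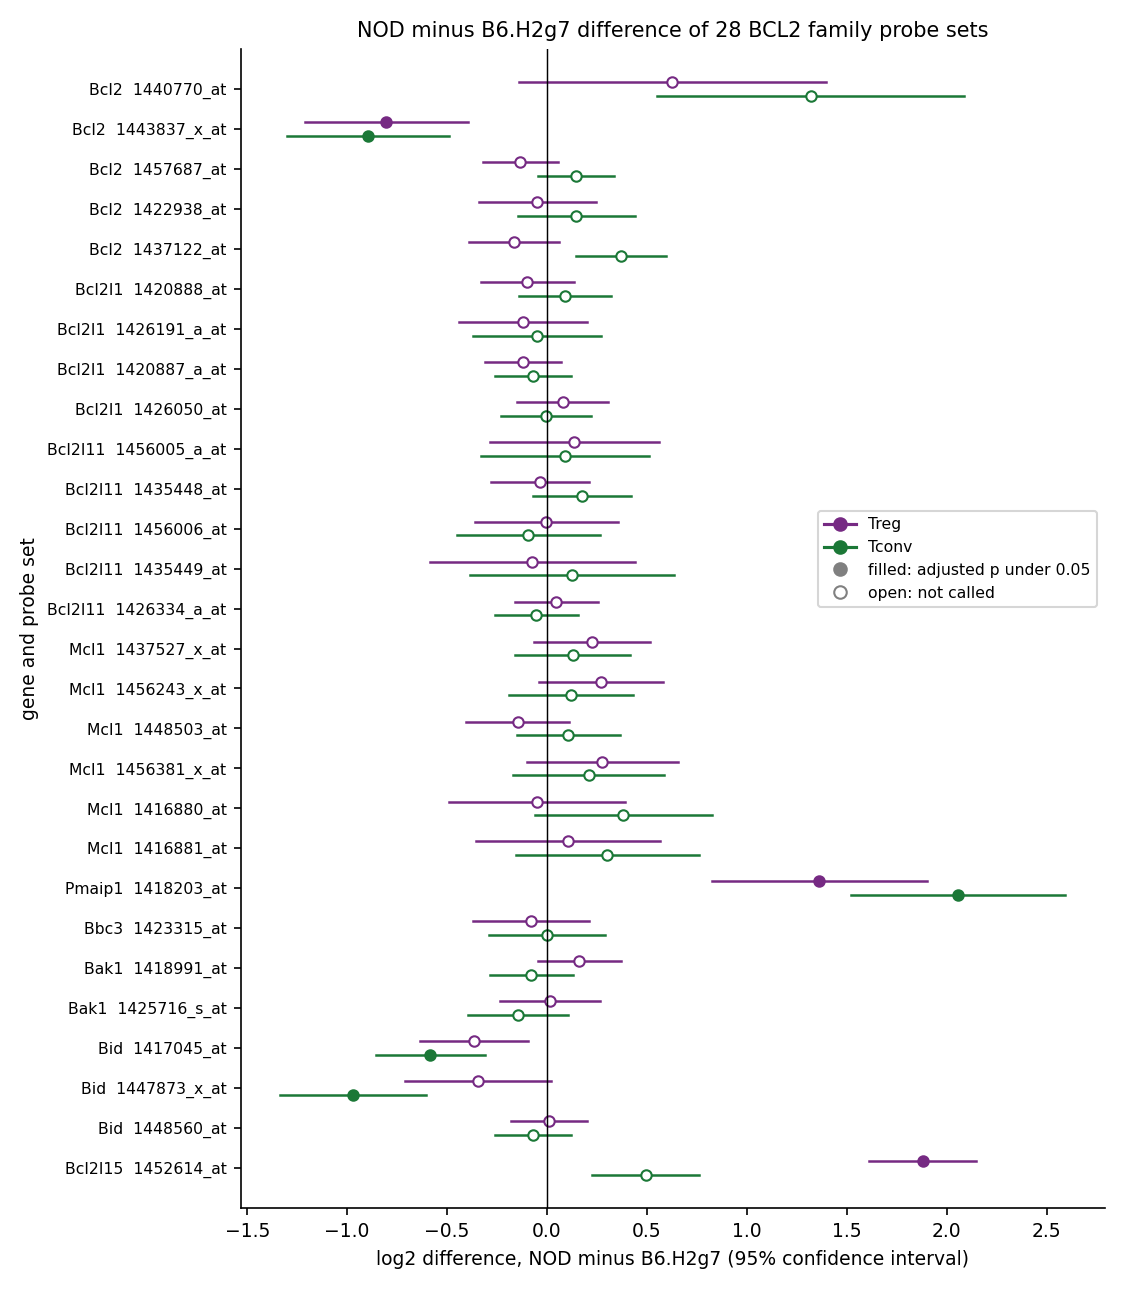
NOD minus B6.H2g7 difference (log2, horizontal axis) of each of the 28 probe sets (vertical axis), in Treg and Tconv, with 95% confidence intervals from limma; filled points have an adjusted p under 0.05. Pmaip1 is filled on the right in both populations, Bcl2 1443837_x_at is filled on the left in both, and Bcl2l15 is filled at 1.88 in Treg.

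Around these genes, other parts of the pathway were compared by the probe set of highest mean per gene, over both strains, where 7.5% of all 18193 genes were called in either direction. Of 15 other BCL2 family genes, 11 were measured: 1 was called higher in Treg, 0 were called lower and the median difference was -0.02, near that of all genes. The higher one was Bnip3, a mitochondrial BH3 protein linked to hypoxia and mitophagy (0.38, limma adjusted p = 0.00365). Of 14 genes of the apoptosome, mitochondrial release and the inhibitors of apoptosis, 12 were measured, with 2 higher, 0 lower and a median of 0.05. Birc3, which encodes the ubiquitin ligase cIAP2 of the TNF receptor and NF-kB pathways, was higher by 0.75 (limma adjusted p = 3.45e-05), and Htra2, a mitochondrial protease, by 0.35 (adjusted p = 0.0179; 0.0512 without NOD Treg replicate 2). The other probe set of Birc3 was called higher (0.57, limma adjusted p = 5.42e-04), and that of Htra2 was not called (0.17, adjusted p = 0.440).

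Of 9 genes of the death receptor route to BID, 8 were measured, with 1 higher, 1 lower and a median of -0.02. Fasl, the ligand of the death receptor FAS, was lower in Treg: it averaged 7.25 in NOD Treg, against 8.52 in NOD Tconv, and 7.21 in B6.H2g7 Treg, against 8.45 in B6.H2g7 Tconv. The Treg and Tconv arrays of each strain did not overlap, and the difference over both strains was -1.25 (limma adjusted p = 5.99e-06). Casp8, the protease that cleaves BID, had a difference of 0.35 over both strains (limma adjusted p = 0.00964), with 0.12 in NOD (adjusted p = 0.817) and 0.57 in B6.H2g7 (adjusted p = 0.00577). The strain difference in that change was -0.44 and was not called (limma adjusted p = 0.962). Without the arrays numbered 1 the B6.H2g7 difference was 0.53 (limma adjusted p = 0.0675).

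Of 21 upstream regulators of the family, 18 were measured, with 6 higher, 2 lower and a median of 0.12. The higher ones included 2 chains of the interleukin 2 receptor, Il2ra (5.20; its product CD25 was the sort marker) and Il2rb (3.38, limma adjusted p = 1.13e-09), and Stat5a, which transmits the receptor's signal (0.50, adjusted p = 0.00161). The survival kinase gene Pim1 was higher by 1.34 (limma adjusted p = 2.08e-08), whereas its relative Pim2 was lower (-0.84, adjusted p = 7.91e-06). Nr4a1, induced by T cell receptor signals, was higher by 0.98 (limma adjusted p = 2.98e-04), and Rel, an NF-kB subunit, by 0.80 (adjusted p = 0.00188). Il7r, the interleukin 7 receptor chain whose signal sustains BCL2 in resting T cells, was lower in Treg: it averaged 12.51 in NOD Treg, against 13.31 in NOD Tconv, and 12.51 in B6.H2g7 Treg, against 13.19 in B6.H2g7 Tconv (difference -0.74, limma adjusted p = 6.24e-05). The other probe sets of Pim1 (0.14, limma adjusted p = 0.538), Stat5a (0.07, 0.827) and Il7r (-1.21, 0.146) were not called. Those of Il2ra and Il2rb were called higher.

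Between the strains, 2 of the 49 measured genes of these 4 lists were called in Treg (4.08%) and 2 in Tconv (4.08%), shares near the 3.33% in Treg and 3.05% in Tconv of all 18193 genes. They were 3 genes, Bmf in both populations, Casp8 in Treg and Vdac2 in Tconv. Bmf, a BH3-only gene, averaged 6.96 in NOD Treg, against 7.71 in B6.H2g7 Treg, and 6.54 in NOD Tconv, against 7.66 in B6.H2g7 Tconv at 1454880_s_at. It was lower in NOD, with a difference of -0.75 in Treg (limma adjusted p = 0.0129) and of -1.12 in Tconv (adjusted p = 6.56e-04), and the Treg call was lost without Treg replicate 2 or 3 of either strain (adjusted p 0.0554 to 0.0608). With the compared arrays alone the Treg call was also lost (limma adjusted p = 0.0655). The other 2 Bmf probe sets were not called, with differences of -0.10 and 0.00 in Treg and 0.16 and -0.08 in Tconv. Casp8 was lower in NOD Treg (-0.46, limma adjusted p = 0.0236), a call lost without any of 5 Treg arrays, B6.H2g7 Treg replicate 2 being the exception (adjusted p 0.0597 to 0.102). The Casp8 call was also lost with the compared arrays alone (adjusted p = 0.0591) and without the arrays numbered 1 (adjusted p = 0.183). Vdac2, a channel of the outer mitochondrial membrane that holds BAK1, was higher in NOD Tconv (0.45, limma adjusted p = 0.0225), a call lost without NOD Tconv replicate 1 or 3 or B6.H2g7 Tconv replicate 2 or 3 (adjusted p 0.0596 to 0.116). Further losses of the Vdac2 call came with the compared arrays alone (adjusted p = 0.0983), with trend and robust settings (0.0556) and without the arrays numbered 1 (0.150).

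Among 15371 other genes, those whose levels followed a member most closely were found by Pearson correlation over the 12 arrays, which share the 4 groups and are given as a description. Pmaip1 was followed by Endod1 (r = 0.975), Gsap (r = 0.971) and Arid5b (r = 0.967). Bcl2l1 was followed by Map3k8 (r = 0.978), Arhgap21 (r = 0.970) and the Treg surface gene Nrp1 (r = 0.968). Bcl2l15 was followed by the interleukin 18 receptor gene Il18r1 (r = 0.967), Ift140 (r = 0.962) and Ift122 (r = 0.958), and Bid by Gimap7 (r = 0.932), Lrrc8c (r = 0.928) and Smox (r = 0.915). At their probe sets of highest mean, Bcl2 was followed by Zfp1 (r = 0.921), Plekhb2 (r = 0.917) and Stat3 (r = 0.917), and Bcl2l11 by Miga1 (r = 0.925), Cldnd1 (r = 0.884) and Hsd3b7 (r = 0.871).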

How the data were processed

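RNA of sorted splenic Treg and Tconv of both strains was measured on 12 Affymetrix arrays, 3 in each of 4 groups. Per the submitters' processing notes, the deposited intensity values were made with RMA (background correction, quantile normalization and summary of each probe set), the version of RMA being not given in the sources used here. These intensities were deposited by the authors on a linear scale, with array medians of 83.9 to 88.6, and log2 was taken here. The number of arrays limits the precision, and since each array pools 3 mice, the spread is that between pools.

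After 64 control probe sets were left out, 45037 were fitted in limma 3.58.1 (R 4.3.3) with 1 mean per group, all 12 arrays sharing the spread (8 residual degrees of freedom), moderated by eBayes. The Benjamini-Hochberg adjustment ran over every probe set tested, in each of 6 comparisons: Treg against Tconv in NOD, in B6.H2g7 and on average, the strain difference in that change, and NOD against B6.H2g7 in Treg and in Tconv. The fit was tested on simulated data. Genes were named from GEO's platform annotation, which can be old. Of 45101 probe sets in the table, 34945 name 1 gene alone. A gene is represented by its probe set of highest mean over the 12 arrays, and all probe sets of the members are reported. Probe sequences were not used here, so how well the probes match NOD transcripts was not tested. Promoter windows came from RefSeq (GRCm38.p6), and 9 of the 10 genes had one, the exception being Pmaip1.

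The members and the gene lists were chosen with earlier results of these data known. The naming rule was all members at every probe set, up to 6 called genes of each list by smallest p, and the 3 genes most alike each called member. The limit of 6 was exceeded for the upstream regulators, where every gene called over both strains was named.

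Samples share replicate numbers across groups, which the main fit did not use in any comparison. The correlations of same-numbered deviations from the group means were 0.600, 0.343 and 0.479 in NOD Treg against NOD Tconv and 0.705, 0.371 and 0.354 in NOD Treg against B6.H2g7 Treg. All were over 0.1, the cutoff used here to take the numbers as possible pairs. This cutoff cannot establish pairing, which the labels do not state, since arrays of unlike number reached 0.26 and 0.34 in these comparisons. In B6.H2g7 Treg against Tconv and in NOD against B6.H2g7 Tconv the pair numbered 2 gave -0.08 and -0.04, so these were treated as sharing only a number. The pairs numbered 1 and 3 gave 0.56 and 0.55 in the former and 0.46 and 0.25 in the latter. Alternatives were the replicate block, a fit on the compared arrays alone, array weights, eBayes with trend and robust settings, quantile normalization, removal of dim probe sets, a pseudocount of 16, the actin difference as a covariate, and arrays left out singly or by number. A ratio of group means of linear intensities was also computed for each result, without a test.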

Additional observations from a re-analysis of the deposited data

Results flagged for a closer look

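Bcl2l15 (1452614_at) had Treg minus Tconv changes that differed between the strains by 1.39 ± 0.17 on the log2 scale (SE, limma adjusted p = 0.00593), with 0.99 in NOD and -0.40 in B6.H2g7. It stood out because the difference between the strains was itself tested in 1 fit over the 12 arrays and passed the threshold. The Treg arrays lay above the Tconv arrays in NOD and below them in B6.H2g7, where the Treg arrays were dim. Without the arrays numbered 1 it was 1.32 with an adjusted p of 0.144, a fit with 2 arrays in each group.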

How the results depend on the processing

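The number of member probe sets called depended on the setting as follows. In B6.H2g7 Treg against Tconv, 5 were called, and 3 were called with the compared arrays alone or with quantile normalization. Lost under these were Bcl2 1457687_at (adjusted p = 0.0833 and 0.0877) and Bcl2l11 1435448_at (adjusted p = 0.0986 and 0.0782). Over both strains, 7 were called, and 11 were called with the replicate number as a block, 13 with array weights and 14 with a covariate for the actin difference, all higher in Treg. Calls over the whole array rose as well, from 2632 to 3829, 4796 and 4138 under these settings. The member calls gained included Mcl1 probe sets under array weights (3) and the actin covariate (2), Bcl2l11 1456005_a_at under the replicate block and the covariate, and Bak1 1418991_at under array weights. For the strain difference in the Treg change, 1 was called, and 0 with the arrays numbered 1 left out, with 42 and 31 calls over the whole array. Between the strains in Treg, 3 were called, and 5 with array weights, and 2 with quantile normalization or a pseudocount of 16, where Bcl2 1443837_x_at was not called. Whole-array calls there were 1468 in the main fit, 2361 with array weights, 1579 with quantile normalization and 1414 with the pseudocount. Between the strains in Tconv, 4 were called, and 2 to 5 with single arrays left out, the lowest without NOD Tconv replicate 1. NOD Treg against Tconv and NOD against B6.H2g7 Treg had numbers that passed the cutoff for pairs, but the main fit did not pair them. The replicate block gave 5 and 3 member calls there, as without it, and changed no member's call. Over the whole array it gave 2362 and 2184 calls, against 1443 and 1468 without it. In NOD against B6.H2g7 Tconv, whose numbers did not pass the cutoff, the replicate block gave 6 member calls. Whole-array calls there were 2124 with the block, against 1333 without it. No called value of any result reversed its direction under any setting run. Of the values recomputed for called results, 1264 kept their status and 101 lost the call. Of those for results not called, 48 became called and 3020 kept their status. The counts of 1264 and 3020 include, for each result, a ratio of group means of linear intensities. That ratio has no p-value and counted as kept where it lay within 1 SE of the main value. The causes of these differences were not tested. A fit on compared arrays alone is not defined for the comparison over both strains or for the strain difference, which use all 12 arrays. With 3 arrays a group, small differences were not resolved, and dim probe sets (5 of 28) give little information on change.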
